A study of Raphanus sativus with 12 samples.

Results

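STAY-GREEN 1-like (Rsa10025626) and pheophytinase (Rsa10036156) are 2 genes of chlorophyll breakdown in radish (Raphanus sativus), taken here by their identifiers from the 30161 genes of the deposited expression table. Both were among the 21435 genes expressed highly enough to be tested. The series mapped N6-methyladenosine (m6A), a methylated base of RNA, in leaf blades, with bolting and flowering as its subject. Plants of the material XHT, whose genotype is labelled diploid, were sampled at 120 days after sowing, in reproductive growth, and at 30 days, in vegetative growth. Both ages had days of 25 °C with 16 h of light and dark nights of 23 °C, with no treatment. Each library held the mixed leaves of 3 plants, and there were 3 independent biological replicates at each age. Transcript levels came from 3 input libraries (ordinary RNA-seq) at each age, and m6A from the authors' list of differential peaks between ages.

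Green leaves hold chlorophyll in the thylakoid membranes of the chloroplast and take it apart when they senesce or are kept in the dark. STAY-GREEN, which is Mendel's green cotyledon gene in pea, removes the central magnesium from chlorophyll a and leaves pheophytin a. Pheophytinase then cuts off the phytol tail to give pheophorbide a, whose ring is opened by pheophorbide a oxygenase. Chlorophyll b enters the same route only after it has been reduced to chlorophyll a, and plants that lack STAY-GREEN or pheophytinase keep green leaves during senescence. The authors' deposited table gives both genes the terms chlorophyll catabolic process and chloroplast thylakoid membrane. STAY-GREEN 1-like lies on R04 from 4874805 to 4875993, a span of 1189 bases on the plus strand, and pheophytinase on R03 from 2613812 to 2616188, a span of 2377 bases on the minus strand. The sources used here give no genome build for these coordinates.

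Levels are FPKM (sequenced fragments for each kilobase of a transcript, corrected for library size), and they do not show how many reads lie behind a value. Over the genes tested, on the log2 scale, pairs of 120-day libraries had Pearson's r of 0.971 to 0.985. Replicate 3 of the 30-day libraries stood apart: it correlated at 0.895 and 0.835 with replicates 1 and 2, which correlated at 0.944 with each other. Both genes and the gene lists, apart from the cell type and organ markers below, are therefore given with and without it. Any other named gene is also given without it where its call, direction or size depended on it. Leaf mesophyll markers (the small subunit of Rubisco, chlorophyll a-b binding proteins and beta carbonic anhydrase, 42 genes) took 10.7%, 12.8% and 13.9% of all FPKM at 120 days and 2.50%, 2.45% and 1.98% at 30 days. Floral organ markers were all too low to test, with the 12 genes summing to 1.75 to 5.11 FPKM at 120 days and 1.2 to 4.65 at 30 days. Phloem markers (10 genes) summed to 161 to 240 FPKM at 120 days and 258 to 534 at 30 days, and 6 of the 10 fell (0 after median centring), beside 37.6% of all genes tested (10.2% after centring). Guard cell markers (4 genes) summed to 22.1 to 28.5 FPKM at 120 days and 17.2 to 89.6 at 30 days, and root markers (5 genes) to 76.2 to 95 at 120 days and 88.2 to 105 at 30 days. The part of these levels in the values that follow was not tested. In bulk leaves, fewer cells of a type and less RNA per cell cannot be told apart.

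Both genes fell in the older, flowering plants. STAY-GREEN 1-like had 4.57, 3.41 and 2.98 FPKM in the 120-day libraries, replicates 1 to 3, against 14.21, 23.15 and 41.00 in the 30-day libraries. The ages did not overlap, and the 30-day libraries differed far more among themselves than the 120-day libraries did. The means were 3.65 ± 0.822 at 120 days and 26.1 ± 13.6 at 30 days (SD, n = 3 each), so the 30-day mean was 7.15 times the 120-day mean. The log2 fold of 120 over 30 days, computed on FPKM + 1, was −2.43 (SE 0.372, 95% interval −3.33 to −1.54, limma adjusted p = 0.00527).

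Pheophytinase was the more abundant of the pair and had the smaller fold. It had 45.83, 53.20 and 53.91 FPKM at 120 days, against 143.76, 194.32 and 333.75 at 30 days. Again every 120-day library lay below every 30-day library, and 30-day replicate 3 was the highest. The means were 50.98 ± 4.47 at 120 days and 224 ± 98.4 at 30 days (SD, n = 3 each), a 30-day mean 4.39 times that at 120 days. Its log2 fold was −2.03 (SE 0.312, 95% interval −2.78 to −1.28, limma adjusted p = 0.00540).

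**Figure D1:**
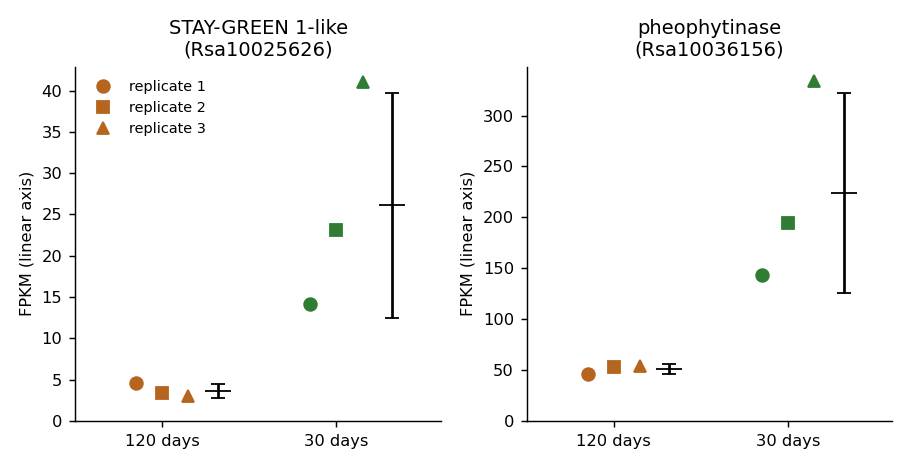
Levels of STAY-GREEN 1-like (left) and pheophytinase (right) in FPKM on linear axes, by age, with a symbol for each replicate and the mean ± SD of the 3 libraries beside the points. All 120-day points lie below all 30-day points in both genes, and 30-day replicate 3 is the highest at 41.00 and 333.75 FPKM.

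Lower values at 120 days were common in these libraries. Both genes were called lower, as were 37.6% of the genes tested (limma adjusted p under 0.05), while 8.4% were called higher. All 3 libraries of 120 days lay below all 3 of 30 days in 49.1% of the genes. In size the differences of the pair were among the greater ones. Among the 8052 genes called lower, STAY-GREEN 1-like had the position 248 (3.08%) and pheophytinase 452 (5.61%) in order of log2 fold. The median gene had a log2 fold of −0.45. When each library was centred on its median, that median was −0.01, 10.2% of genes were called lower and both members still were, with log2 folds of −2.00 (adjusted p = 0.0151) and −1.59 (adjusted p = 0.0196). Without 30-day replicate 3 the log2 folds were −2.06 (adjusted p = 0.00262) and −1.70 (adjusted p = 0.00188), beside 42.8% of genes called lower. The 8052 lower calls became 5032, 3900 and 3789 without 120-day replicate 1, 2 or 3, and 5299 without 30-day replicate 1.

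In the authors' deposited table the log2 fold was −2.84 for STAY-GREEN 1-like and −2.14 for pheophytinase, both marked as significantly down, as were 11.5% of the genes in it, while 6.45% were marked as up. In level, STAY-GREEN 1-like moved a long way down the order of expressed genes. At 120 days 71.6% of the tested genes had a higher mean FPKM than it had, and at 30 days 25.7% did. Pheophytinase remained among the abundant transcripts, with 9.50% of genes above it at 120 days and 1.63% at 30 days.

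Whether the pair fell by the same factor was asked with their ratio within each library, which does not depend on how libraries are scaled. STAY-GREEN 1-like stood at 9.97%, 6.41% and 5.53% of the pheophytinase FPKM at 120 days and at 9.88%, 11.9% and 12.3% at 30 days. The ages overlapped, since 120-day replicate 1 was level with 30-day replicate 1. The mean log2 ratio was −3.82 ± 0.443 at 120 days and −3.14 ± 0.170 at 30 days (SD, n = 3 each). The difference of −0.68 gave p = 0.2 in an exact 2-sided permutation test, which cannot go below 0.1 with 3 against 3 libraries, so a difference in the size of the 2 falls was not shown.

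**Figure D2:**
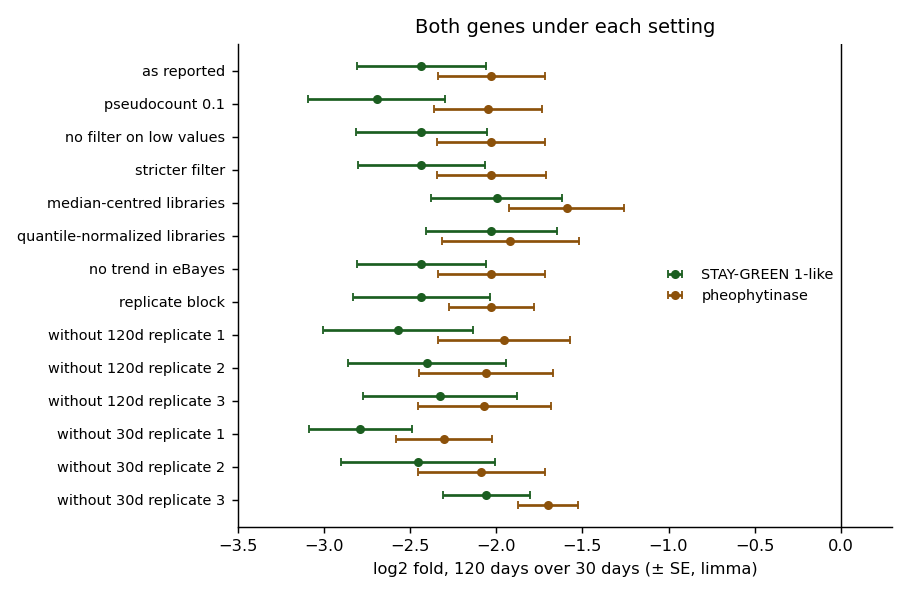
Log2 fold of 120 over 30 days (± SE, limma) of STAY-GREEN 1-like (green) and pheophytinase (brown) under each way of processing the values. Every point lies below 0, between −2.79 and −2.00 for STAY-GREEN 1-like and between −2.30 and −1.59 for pheophytinase.

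STAY-GREEN was a family of 5 annotated genes in the radish table, of which 4 fell and 1 did not pass the test, beside 37.6% of all genes called lower. The sources used here do not say how reads that fit several near-identical copies were counted, which makes the split between copies uncertain. STAY-GREEN 2-like (Rsa10009396, R03, 24433645 to 24434868) had 0.67, 3.11 and 1.39 FPKM at 120 days against 16.25, 39.97 and 100.52 at 30 days, the greatest fold of the family (log2 fold −4.03, limma adjusted p = 0.00632). In Arabidopsis, STAY-GREEN 2 has been described as slowing chlorophyll breakdown, and the authors' table lists the term negative regulation of chlorophyll catabolic process for this gene. Its log2 fold was −3.39 without 30-day replicate 3 and −4.67 without 30-day replicate 1.

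The other copies are annotated as STAY-GREEN 1. Rsa10014265 (R02, 6835145 to 6836464) had 5.29, 7.05 and 3.6 FPKM at 120 days against 22.12, 27.01 and 93.50 at 30 days (log2 fold −2.68, limma adjusted p = 0.0110, and −2.05 without 30-day replicate 3). Rsa10004032 (R08, 27304545 to 27305987) had 8.86, 9.48 and 9.54 at 120 days against 21.41, 34.15 and 45.13 at 30 days (log2 fold −1.69, limma adjusted p = 0.00570, and −1.45 without 30-day replicate 3). It was the most abundant copy at 120 days. Its neighbour Rsa10004033 (R08, 27297084 to 27298136), 6408 bases away, had 6.19, 5.43 and 5.74 FPKM at 120 days against 7.75, 6.74 and 16.42 at 30 days. The ages did not overlap there either, but the log2 fold of −0.64 did not pass (limma adjusted p = 0.135). It was −0.28 without 30-day replicate 3 and −0.20 after median centring.

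Summed over the 5 copies, STAY-GREEN transcripts came to 25.58, 28.48 and 23.25 FPKM at 120 days and 81.74, 131.02 and 296.57 at 30 days. Rsa10025626 made up 17.9%, 12% and 12.8% of that sum at 120 days and 17.4%, 17.7% and 13.8% at 30 days. It was thus a minor copy at both ages. The tandem copy Rsa10004033 made up 24.2%, 19.1% and 24.7% at 120 days, and 9.48%, 5.14% and 5.54% at 30 days.

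Pheophytinase had 3 annotated genes, and Rsa10036156 was the only one that fell. Rsa10005974 (R07, 24827141 to 24829169) had 15.43, 18.96 and 22.31 FPKM at 120 days against 7.59, 3.79 and 39.12 at 30 days (log2 fold 0.74, limma adjusted p = 0.436). Rsa10026433 (R02, 1383166 to 1384793) had 28.67, 29.37 and 40.84 at 120 days against 14.72, 8.78 and 72.98 at 30 days (log2 fold 0.58, limma adjusted p = 0.529). In both, 30-day replicate 3 lay above all 120-day libraries while the other 30-day libraries lay below them. Without that library both copies were called higher at 120 days, with log2 folds of 1.62 (limma adjusted p = 0.00631) and 1.44 (limma adjusted p = 0.00669), where 10.2% of all genes were. In the authors' table only Rsa10036156 of the 3 carries the terms pheophytinase activity and chlorophyll catabolic process, while the other 2 carry hydrolase activity.

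Within each library, Rsa10036156 took 51.0%, 52.4% and 46.1% of the FPKM of the 3 pheophytinase genes at 120 days, against 86.6%, 93.9% and 74.9% at 30 days. It exceeded Rsa10005974 by ratios of 2.97, 2.81 and 2.42 at 120 days and of 18.9, 51.3 and 8.53 at 30 days. Its ratios to Rsa10026433 were 1.6, 1.81 and 1.32 at 120 days and 9.77, 22.1 and 4.57 at 30 days. The ages did not overlap in either ratio. The mean log2 ratios differed by −2.89 and −2.67, each with p = 0.1 in an exact 2-sided permutation test, the smallest that 3 against 3 libraries allow. The same ratio was taken of STAY-GREEN 1-like to its 4 copies, and differed by 2.09 for Rsa10009396, 0.17 for Rsa10014265, −0.94 for Rsa10004032 and −2.01 for Rsa10004033. Rsa10014265 had p = 0.6 and the other 3 had p = 0.1 in the exact permutation test. Over these 6 comparisons, chosen after the values were seen, the Benjamini-Hochberg adjusted permutation p was 0.12 for the 5 at p = 0.1 and 0.6 for the sixth.

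**Figure D3:**
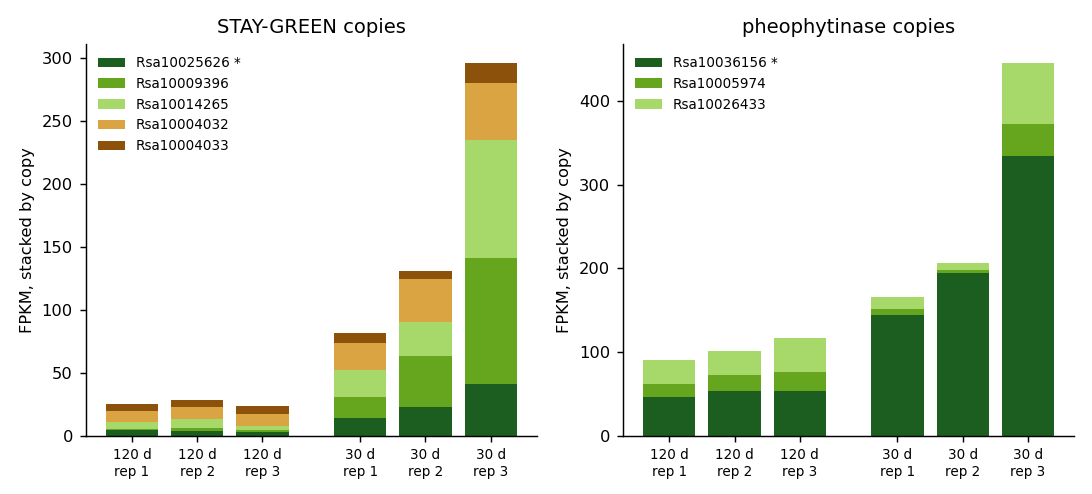
FPKM of the 5 STAY-GREEN genes (left) and the 3 pheophytinase genes (right), stacked by copy on linear axes from 0, in each 120-day and 30-day library; an asterisk marks Rsa10025626 and Rsa10036156. Rsa10036156 fills 46.1% to 52.4% of the pheophytinase bars at 120 days and 74.9% to 93.9% at 30 days, and Rsa10025626 is a small part of the STAY-GREEN bars at both ages.

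The list of chlorophyll breakdown genes held 18, all of them tested, of which 6 fell, 3 rose and 9 did not pass, with a median log2 fold of −0.57 beside −0.45 for all genes. Of all genes 37.6% were called lower and 8.4% higher, so the share of lower calls in the list was near that background in this fit. After median centring the same 6 were lower and 3 were higher, beside 10.2% and 13.8% of all genes. The 6 were 4 STAY-GREEN genes, pheophytinase and cytochrome P450 89A9. Without 30-day replicate 3, 6 were lower and 7 higher, beside 42.8% and 10.2% of all genes, and the median was −0.15. The list summed to 851, 885 and 996 FPKM at 120 days and to 715, 945 and 1624 at 30 days.

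None of the genes that turn chlorophyll b into chlorophyll a was called lower. The first step belongs to chlorophyll(ide) b reductase. Its NYC1 copy Rsa10001094 had 100 ± 17.6 FPKM at 120 days and 83.3 ± 39.7 at 30 days (log2 fold 0.35, limma adjusted p = 0.422), and its copy Rsa10030428 had 70.5 ± 7.78 at 120 days and 67.0 ± 27.9 at 30 days (log2 fold 0.14, adjusted p = 0.705). Both were called higher at 120 days without 30-day replicate 3 (log2 folds 0.71 and 0.46, limma adjusted p = 0.0234 and 0.0390). The related NOL (Rsa10036522) had 22.4 ± 4.71 FPKM at 120 days and 34.0 ± 17.1 at 30 days (log2 fold −0.49, limma adjusted p = 0.294, and −0.12 without 30-day replicate 3). 7-hydroxymethyl chlorophyll a reductase (Rsa10017376), which carries out the next step, rose to 139.44, 140.06 and 141.05 FPKM at 120 days, against 76.73, 101.13 and 96.68 at 30 days (log2 fold 0.62, limma adjusted p = 0.0230). That call did not hold without 120-day replicate 1, 2 or 3 (limma adjusted p = 0.0692, 0.0845 and 0.0826) or without 30-day replicate 1 (0.0681).

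Chlorophyllase also removes the phytol tail, but from chlorophyll itself, and in Arabidopsis it is not needed for senescence. Chlorophyllase-1 (Rsa10038302) rose, the opposite of pheophytinase. It had 212.60, 173.26 and 250.47 FPKM at 120 days against 23.19, 25.77 and 8.06 at 30 days, an 11.2-fold difference of means (log2 fold 3.55, limma adjusted p = 0.00320). The ages lay far apart, and 30-day replicate 3 was the lowest library, unlike in pheophytinase. The log2 fold was 3.05 without it. Chlorophyllase-2 had copies Rsa10012313, with 11.5 ± 1.83 FPKM at 120 days and 35.8 ± 37.2 at 30 days (log2 fold −1.01, limma adjusted p = 0.285), and Rsa10012314, with 8.69 ± 1.62 at 120 days and 24.6 ± 23.4 at 30 days (log2 fold −0.96, adjusted p = 0.272). Both were called lower at 120 days without 30-day replicate 2 (log2 folds −1.76 and −1.67, limma adjusted p = 0.0403 and 0.0318). Without 30-day replicate 3 neither was called (log2 folds −0.19 and −0.23, limma adjusted p = 0.692 and 0.644).

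Other genes placed after pheophytinase in the route were mixed. Cytochrome P450 89A9 (Rsa10043145), which in Arabidopsis deformylates the colourless catabolites, fell to 6.09, 12.81 and 5.55 FPKM at 120 days, against 54.02, 158.18 and 113.77 at 30 days (log2 fold −3.54, limma adjusted p = 0.00369, and −3.44 without 30-day replicate 3). Its highest library was 30-day replicate 2. Pheophorbidase-like (Rsa10021353), a relative of the esterase that demethylates catabolites, rose to 86.6 ± 7.33 FPKM at 120 days against 49.1 ± 5.0 at 30 days (log2 fold 0.81, limma adjusted p = 0.00815). The authors' table gives this gene pheophorbidase activity, so by that annotation it acts on pheophorbide, before the ring is opened. TIC 55 (Rsa10009606), a chloroplast envelope protein that hydroxylates catabolites in Arabidopsis, had 122 ± 6.23 FPKM at 120 days and 139 ± 51.9 at 30 days (log2 fold −0.13, limma adjusted p = 0.704, and 0.16 with adjusted p = 0.353 without 30-day replicate 3). No description in the table named pheophorbide a oxygenase or red chlorophyll catabolite reductase. By enzyme number, however, the authors' annotation gives TIC 55 (Rsa10009606) EC:1.14.15.17, that of pheophorbide a oxygenase. Rsa10026392, chosen after its values were seen because it carries the enzyme number of the reductase, had 60.7 ± 1.52 FPKM at 120 days and 49.0 ± 22.6 at 30 days (log2 fold 0.40, limma adjusted p = 0.314, and 0.74 with adjusted p = 0.00758 without 30-day replicate 3).

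**Figure D4:**
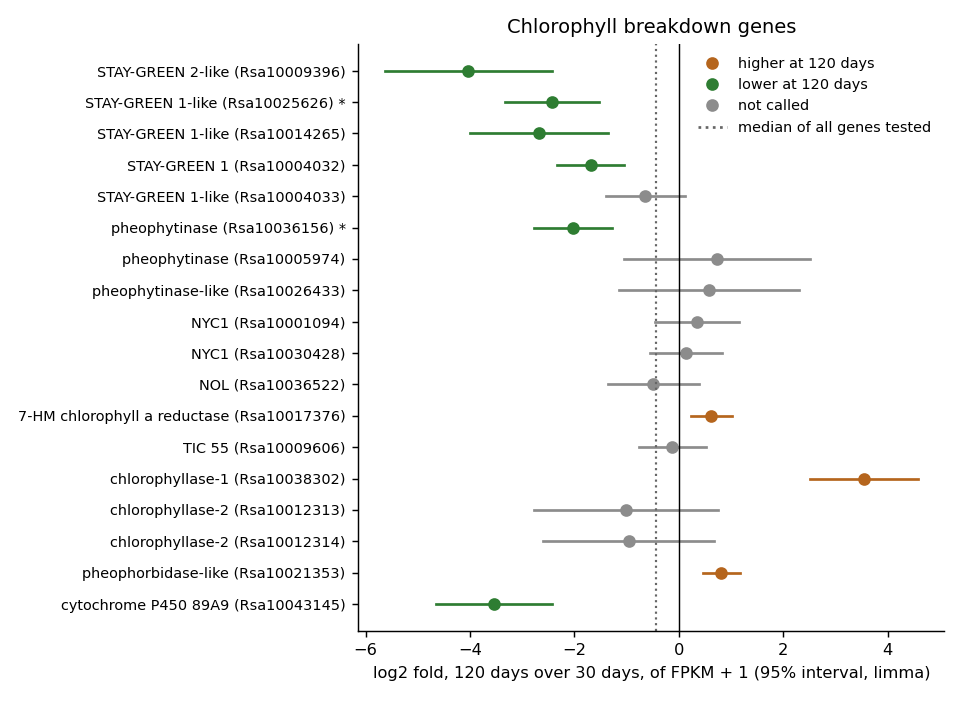
Log2 fold of 120 over 30 days, on FPKM + 1, of the 18 chlorophyll breakdown genes with 95% intervals from limma, grouped by step. Asterisks mark Rsa10025626 and Rsa10036156, and the dotted line is the median of all genes tested at −0.45. The 6 genes called lower are 4 STAY-GREEN genes, pheophytinase and cytochrome P450 89A9, and the farthest to the right is chlorophyllase-1 at 3.55.

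Phytol released by pheophytinase can be phosphorylated and used for tocopherol (vitamin E). Of 17 matched genes of phytol and tocopherol metabolism 16 were tested, 1 rose, 4 fell and 11 did not pass, with a median log2 fold of −0.10. Of all genes 8.4% were called higher and 37.6% lower, so neither share of the list exceeded the background. After median centring 1 rose and 1 fell, beside 13.8% and 10.2% of all genes. Geranylgeranyl diphosphate reductase (Rsa10034251), which makes the phytyl chain for new chlorophyll, rose to 175 ± 34.1 FPKM at 120 days against 38.0 ± 5.75 at 30 days (log2 fold 2.16, limma adjusted p = 0.00213). Farnesol kinase (Rsa10023722), of the phytol kinase family, fell to 5.33 ± 0.683 at 120 days against 11.0 ± 0.621 at 30 days (log2 fold −0.93, limma adjusted p = 0.00540, and 0.0667 after centring). A phytanoyl-CoA dioxygenase-like gene (Rsa10017316) fell with a log2 fold of −2.20 (limma adjusted p = 0.00659). An acyltransferase-like gene (Rsa10015506), of the family that makes phytyl esters, fell with −1.22 (limma adjusted p = 0.0138, and 0.0727 after centring and 0.0541 without 120-day replicate 3). The lower calls numbered 2 without 120-day replicate 3 and 6 without 30-day replicate 3, beside 3789 and 9166 of all 21435 genes. The rises numbered 2 and 3 without 30-day replicate 2 or 3, beside 1887 and 2197 of all genes. The list median was −0.20 without 30-day replicate 3.

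The calls among chlorophyll synthesis genes were opposite in direction to those of STAY-GREEN and pheophytinase. Of 29 matched genes 28 were tested, 16 rose, 0 fell and 12 did not pass, beside 8.4% of all genes called higher, and the median log2 fold was 0.88. The rises numbered 23 after median centring (13.8% of all genes). They numbered 9 and 10 without 120-day replicate 2 or 3, beside 954 and 1075 of all 21435 genes. Without 30-day replicate 3, 19 rose, beside 10.2% of all genes, and the median was 0.72. Porphobilinogen deaminase (Rsa10013490), an early step of the pathway, had 52.8 ± 6.63 FPKM at 120 days against 12.2 ± 3.43 at 30 days (log2 fold 2.05, limma adjusted p = 0.00281). Magnesium chelatase inserts the metal that STAY-GREEN removes, and its subunits ChlI-1 (Rsa10001911) and ChlD (Rsa10037502) rose with log2 folds of 1.79 and 1.41. Chlorophyll synthase (Rsa10018751), which attaches the tail that pheophytinase removes, had 37.2 ± 5.47 FPKM at 120 days against 15.7 ± 2.01 at 30 days (log2 fold 1.19, limma adjusted p = 0.00438).

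The chlorophyll a-b binding proteins, which hold most antenna pigment, rose far more. Of 23 tested genes of 24 matched, 12 rose, 1 fell and 10 did not pass, beside 8.4% of all genes called higher, and the median log2 fold was 3.29. Without 30-day replicate 3, 21 rose (10.2% of all genes) and the median was 1.90. Without 120-day replicate 2 or 3, 6 rose, beside 954 and 1075 of all 21435 genes. The 24 genes summed to 23910, 34098 and 32714 FPKM at 120 days and to 3560, 4534 and 803 at 30 days. The 30-day library with the most STAY-GREEN and pheophytinase transcript, replicate 3, was the one with the least antenna transcript. The 4 genes with the smallest p had log2 folds of 8.21 (Rsa10029878), 5.46 (Rsa10029877), 5.94 (Rsa10038673) and 5.52 (Rsa10039737), the last 3 being 4.57, 4.75 and 4.38 without that library. Without 30-day replicate 2, Rsa10038673 and Rsa10039737 had 6.87 and 6.17.

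**Figure D5:**
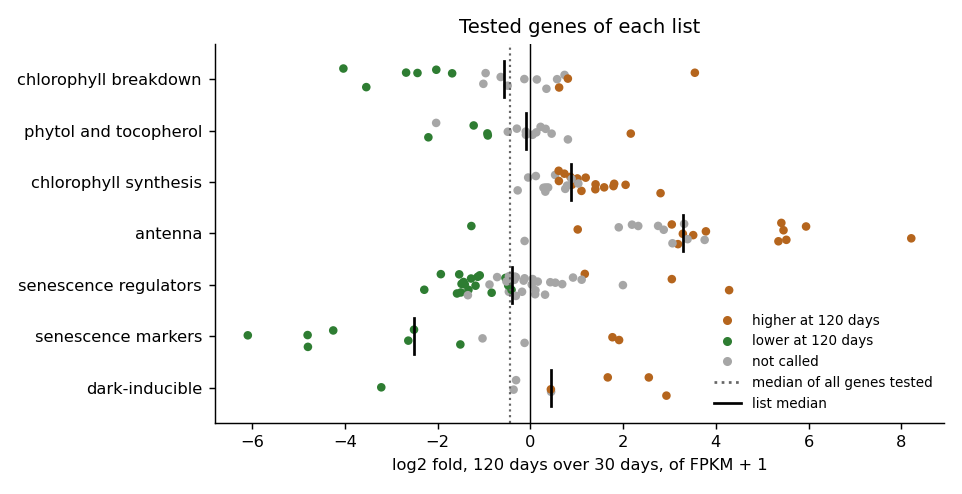
Log2 fold of 120 over 30 days, on FPKM + 1, of each tested gene in 7 lists; colours give the limma call, black bars the list medians and the dotted line the median of all genes tested at −0.45. Antenna and chlorophyll synthesis genes lie mostly to the right, with medians of 3.29 and 0.88, and senescence markers mostly to the left, with a median of −2.51.

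STAY-GREEN and pheophytinase are themselves senescence genes, and most of the tested senescence markers were also called lower. Of 19 matched genes 11 were tested, 7 fell, 2 rose and 2 did not pass, with a median log2 fold of −2.51, beside 37.6% of all genes called lower and 8.4% higher. The counts were 7 and 2 also after median centring, beside 10.2% and 13.8% of all genes, and without 30-day replicate 3, beside 42.8% and 10.2%. Vacuolar-processing enzyme gamma, a protease active in senescing tissue, fell in both copies, to 64.0 ± 16.2 FPKM at 120 days against 1850 ± 689 at 30 days for Rsa10002434 and to 15.8 ± 6.46 at 120 days against 459 ± 158 at 30 days for Rsa10000410 (log2 folds −4.80 and −4.80). Cytosolic glutamine synthetase 1-4, which packs nitrogen for export from old leaves, fell in copies Rsa10015065 (log2 fold −4.25) and Rsa10018674 (log2 fold −6.09). The second had −6.75, −6.79 and −5.48 without 120-day replicate 1, 30-day replicate 2 or 30-day replicate 3.

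Of 15 matched dark-inducible genes 8 were tested, 4 rose, 1 fell and 3 did not pass, with a median log2 fold of 0.44, beside 8.4% of all genes called higher and 37.6% lower. Without 30-day replicate 3, 4 rose and 1 fell, beside 10.2% and 42.8% of all genes, with a list median of 0.46. Branched-chain amino acid aminotransferase 2 (Rsa10037623) fell to 15.2 ± 3.46 FPKM at 120 days against 158 ± 77.7 at 30 days (log2 fold −3.21, limma adjusted p = 0.00281). An aminotransferase 6-like gene (Rsa10031513) rose (log2 fold 1.67, limma adjusted p = 0.0137). The galactosyltransferase 6 copies Rsa10013147 and Rsa10021029 rose with 2.93 and 2.55 (limma adjusted p = 0.0158 and 0.0227), and neither passed without 120-day replicate 2, 120-day replicate 3 or 30-day replicate 1. Their log2 folds were 3.70 and 3.24 without 30-day replicate 2, and 2.27 and 1.84 without 30-day replicate 3. The rises in the list numbered 1 without 120-day replicate 2, 120-day replicate 3 or 30-day replicate 1, and 2 without 120-day replicate 1. In these settings, in that order, 954, 1075, 1493 and 1148 of all 21435 genes were called higher.

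Of 66 matched senescence regulators 46 were tested, 3 rose, 17 fell and 26 did not pass, near the 8.4% and 37.6% of all genes in each direction. The median log2 fold was −0.39, and after median centring 6 rose and 7 fell, beside 13.8% and 10.2% of all genes. Without 30-day replicate 3, 3 rose and 18 fell, beside 10.2% and 42.8% of all genes. The lower calls numbered 7, 9 and 6 without 120-day replicate 1, 2 or 3, beside 5032, 3900 and 3789 of all 21435 genes. Without 120-day replicate 3, 5 rose, beside 1075 of all genes. The smallest p belonged to SOC1-like Rsa10006202, a flowering promoter that in Arabidopsis binds and represses pheophytinase, with 32.7 ± 5.07 FPKM at 120 days against 0.77 ± 0.537 at 30 days (log2 fold 4.29, limma adjusted p = 0.00104). EIN3-like 3 (Rsa10039488), of the ethylene response family, the red light receptor phytochrome B (Rsa10032063) and ABSCISIC ACID-INSENSITIVE 5-like 7 (Rsa10027856) fell, with log2 folds of −1.48, −1.09 and −1.28.

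Some known Arabidopsis regulators of chlorophyll breakdown genes, not all of those in the list, were also read out, chosen after their values were seen. They do not stand for the list, whose calls were near those of all genes in each direction. The part of any regulator named here or above in the levels of the pair was not tested. ORE1, listed here as NAC domain-containing protein 92, activates STAY-GREEN 1 there. Its radish copy Rsa10035257 had 0.153 ± 0.0321 FPKM at 120 days against 6.16 ± 6.29 at 30 days (log2 fold −2.29, limma adjusted p = 0.0186), a call lost after median centring (adjusted p = 0.0587) and without 120-day replicate 1, 2 or 3 (0.0569, 0.0626 and 0.0620). Its log2 fold was −1.61 without 30-day replicate 3. ABSCISIC ACID-INSENSITIVE 5 (Rsa10038795), a bZIP factor of the abscisic acid response that binds the STAY-GREEN 1 promoter there, fell with a log2 fold of −1.33 (limma adjusted p = 0.0152). That call was lost after centring (adjusted p = 0.0816) and without 120-day replicate 1 or 3 (0.0547 and 0.0615). Its relative ABSCISIC ACID-INSENSITIVE 5-like 3 (Rsa10006720) fell with −1.44 (limma adjusted p = 0.00371, and 0.0206 after centring). The ethylene factor EIN3 (Rsa10014395) had a log2 fold of −0.38 (limma adjusted p = 0.0712), and was called lower without 30-day replicate 3 (−0.44, adjusted p = 0.0354). Of the jasmonate factor MYC2, copy Rsa10039524 fell with −1.14 (limma adjusted p = 0.00723) and copy Rsa10030004 had 0.16 (adjusted p = 0.410, and 0.0335 and called higher after centring).

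Similarity of profile was measured as the root mean square difference of mean-centred log2(FPKM + 1) over the 6 libraries, among 15144 genes with a mean of at least 5 FPKM. Pheophytinase came at position 29 (0.191%) in the order of likeness to STAY-GREEN 1-like, and STAY-GREEN 1-like at position 130 (0.858%) in that of pheophytinase, at a distance of 0.307. With a pseudocount of 0.1 the positions were 69 and 461. These are descriptions over 6 libraries that share 2 ages. The nearest described genes to STAY-GREEN 1-like were an E3 ubiquitin-protein ligase BOI-like gene (Rsa10006950, 0.212), cation/calcium exchanger 1 (Rsa10023351, 0.219), PFC0760c-like (Rsa10029108, 0.234), the light-response transcription factor HY5 (Rsa10013670, 0.250) and trichome birefringence-like 41 (Rsa10034831, 0.256). Nearest to pheophytinase were phosphoethanolamine N-methyltransferase 3 (Rsa10023460, 0.116), the chloroplast ADP,ATP carrier protein 1 (Rsa10029767, 0.118), zinc finger CCCH protein 34-like (Rsa10033059, 0.139), stress enhanced protein 2 (Rsa10028959, 0.147) and fructokinase-1 (Rsa10038463, 0.170).

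Neither gene was in the authors' list of differential m6A peaks, which held 5476 peaks in 5211 genes, 5300 of them higher and 176 lower at 120 days. Of the tested genes 23.3% had at least 1 listed peak, while 0 of the 18 breakdown genes had. The list holds only peaks that the authors called different between the ages, with an FDR of up to 0.0912, so it does not say whether these transcripts carried m6A. In the deposited list, chlorophyll synthesis genes had 7 peaks in 6 of the 28 tested genes, all higher at 120 days. That share was near the 23.3% of all tested genes, and most listed peaks were higher. Senescence regulators had 5 peaks in 5 genes, and the phytol and dark-inducible lists 2 peaks in 2 genes each, all higher. Senescence markers had 1 higher and 1 lower peak, and antenna genes had 0.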

How the data were processed

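The submitters' processing notes name fastp, FastQC, HISAT2, StringTie, HOMER and edgeR, without versions or roles. The authors deposited FPKM with 2 decimals for 6 input libraries, with a log2 fold, p-value and q-value per gene, per the file headers, and for each differential peak a log2 fold, p-value and FDR. Low FPKM values were not multiples of a common step, so depth is unknown and no count test was run. Aligner settings, genome build, strand handling and the treatment of shared reads are not given in the sources used here; antisense neighbours may share reads. No values per IP library were used, and 0 value columns were left unmapped.

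Genes that reached an FPKM of 1 in 3 or more libraries were fitted with limma 3.58.1 in R 4.3.3 (eBayes with trend) on log2(FPKM + 1). p-values were 2-sided and Benjamini-Hochberg adjusted over all genes tested, with a threshold of 0.05. Fold changes on this scale understate those of low genes. Tables and figures were made in Python 3.11.15 with pandas 2.3.3, and the fit was tested on simulated data. Groups followed the sample titles.

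Both genes and all lists were chosen with earlier results of these data known. Lists were matched by words in gene descriptions, leaving out EIN3-binding F-box proteins, helicases named SEN1 and glutamyl-tRNA reductase-binding protein. Named genes were the breakdown genes (of an enzyme with over 3 copies, the 3 with the highest mean, the other STAY-GREEN copies being added to complete the family), up to 4 genes per other list by smallest p, and the 5 nearest profiles of each gene. Alternatives changed the pseudocount, filter, scaling, trend, replicate block, libraries and peak FDR. Promoter and protein sequences were not analysed here.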

Additional observations from a re-analysis of the deposited data

How the results depend on the processing

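STAY-GREEN 1-like and pheophytinase stayed lower at 120 days and past the threshold in all 13 alternatives (limma adjusted p of 0.00262 to 0.0286 and of 0.00188 to 0.0281). Leaving out 1 library gave log2 folds of −2.79 to −2.06 and of −2.30 to −1.70. The difference in their log2 ratio was −0.93 to −0.41 over 8 alternatives. Of all genes, 8052 were lower and 1801 higher at 120 days. Those numbers became 2188 and 2968 after median centring, and 2799 were lower after quantile normalization. Leaving out 1 library gave 3789 to 9166 lower and 954 to 2197 higher. In the breakdown list, 3 genes were higher, and 2 to 7 when 1 library was left out, the 7 being without 30-day replicate 3. With a pseudocount of 0.1 the positions in likeness were 69 and 461 in place of 29 and 130. The cause of these shifts was not tested. Of 286 counts recomputed for the other lists, 222 were within 1.5 times the count reported. Peaks of both genes and of the breakdown list numbered 0 at an FDR under 0.01 too.

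Replicate numbers were not treated as pairing the ages, since the labels do not say so and the deviations of same-numbered libraries correlated at 0.272, 0.142 and 0.0814. Each library correlated best with its own number. With a replicate block, 6875 genes were lower and 1733 higher, and the limma adjusted p was 0.0182 for STAY-GREEN 1-like and 0.0140 for pheophytinase. The block gave p = 0.5 in an exact sign-flip permutation test of the ratio. Low read depth cannot be assessed from FPKM, so the precision of the copies under 5 FPKM is unknown.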

Other observations

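In 14 of the 18 chlorophyll breakdown genes (77.8%) the highest of the 6 libraries was 30-day replicate 3, against 34.6% of the 21435 genes tested. Without STAY-GREEN 1-like and pheophytinase it was 12 of 16 genes (75%). The same library had the lowest antenna sum (803 FPKM) and the lowest chlorophyll synthesis sum, at 950 FPKM against 1254 and 1394 in 30-day replicates 1 and 2 and 2148 to 2550 at 120 days. This count was made after the values were seen, and the part of that library's state in it was not tested.

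The genes beside the pair differed less between ages. Dihydroorotase (Rsa10025627), 1207 bases before STAY-GREEN 1-like on R04, had 3.19 ± 0.157 FPKM at 120 days and 6.52 ± 0.767 at 30 days (SD, n = 3 each). Its log2 fold was −0.84 (limma adjusted p = 0.00691, and 0.0896 after median centring). FIZZY-RELATED 2-like (Rsa10025625), 1181 bases after it, was too low to test, with means of 0.67 FPKM at 120 days and 1.19 at 30 days. Rsa10036155, an uncharacterized gene 791 bases from pheophytinase on the opposite strand, fell with a log2 fold of −0.91 (limma adjusted p = 0.00406) and has 1 listed m6A peak. ZINC INDUCED FACILITATOR 1-like (Rsa10036159), 7494 bases to the other side, had a log2 fold of 1.16 (limma adjusted p = 0.214). That the pair differed more than these neighbours was not tested.

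Vacuolar-processing enzyme gamma (Rsa10002434), the senescence marker with the highest level at 30 days, had the only lower m6A peak among these lists, at R02 from 76559 to 76937. Its log2 fold was −4.78 in the authors' deposited list, nearly the same as the −4.80 of the transcript. Whether m6A per transcript differed between the ages was not tested.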
